A study of Mus musculus with 6 samples.

Results

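The 8 genes described here, Pygl, Pygb, Gys1, Gbe1, Ugp2, Pgm1, Pgm2 and Gyg1, encode the enzymes that build glycogen from glucose 6-phosphate and the phosphorylases that take it apart. They were taken by gene symbol from 56941 Ensembl gene identifiers, of which 34414 had at least 1 read count and 13299 had enough counts to be tested, the 8 genes among them. The genes were chosen from measured values, because their difference between the same S1P and vehicle samples was already known, so that difference is given for them as a description with no test.

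CD8+ T cells, taken as naive cells from the spleens of B6 mice, were activated for 3 days on plate-bound antibodies to CD3 and CD28 with rIL-2 at 100 U/ml, and bulk polyadenylated RNA was sequenced. Sphingosine 1-phosphate (S1P), a signalling lipid that binds S1PR1 and its relatives, was given at 5 µM to 3 samples 24 h into the activation, and 3 samples received the vehicle at the same time. Mouse strain, cell isolation, activation and cytokine were shared by both groups, and the labels name no genetic change. The labels call the samples biological replicates but do not say whether each came from its own animal, so p-values measure the spread between these samples, which may be in part technical, and the methods of the study allow for total splenocytes as well as purified naive T cells at the start.

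Glycogen is a branched polymer of glucose that cells store and draw on. Glucose 6-phosphate is turned into glucose 1-phosphate by a phosphoglucomutase and then into UDP-glucose by UDP-glucose pyrophosphorylase. Glycogenin starts the chain, glycogen synthase lengthens it, and the branching enzyme adds the branches, while glycogen phosphorylase releases glucose units from it again. Memory CD8+ T cells are known to hold a glycogen pool.

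Total counts lay between 12048880 and 17384084 per library. S1P replicate 2 stood apart from the other libraries. It had 7.80% of its counts on mitochondrial genes, against 4.10% to 4.93% in the other 5, and its values are named below where they part from those of S1P replicates 1 and 3. CD8 T cell markers were high in every library. The 7 markers summed to between 1221 and 1453 CPM (read counts scaled to library size) in vehicle and between 1047 and 1207 CPM in S1P samples. Of the 7, 5 had a log2 fold change below 0 and 2 above 0. Cd8a and Cd8b1 were the lowest (log2 fold change -0.67 and -0.55, edgeR adjusted p = 0.000243 and 0.00767). Markers of B cells and of CD4 T cells were present in all 6 libraries too. The 7 B cell markers summed to between 542 and 676 CPM in vehicle and between 570.1 and 657 CPM in S1P samples, and the 4 CD4 T cell markers to between 229 and 272 and between 252 and 319 CPM. Of the B cell markers Ebf1 was higher and Ms4a1 lower in the S1P samples (log2 fold change 0.60 and -0.39, edgeR adjusted p = 0.00235 and 0.00889), and of the CD4 T cell markers Cd40lg and Zbtb7b were higher (0.50 and 0.37, edgeR adjusted p = 0.0134 and 0.00886). The part of these cell types in the values below was not tested, and in bulk RNA fewer cells of a type and less RNA per cell cannot be told apart.

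Of the 8 genes, all had a fitted log2 fold change above 0 after S1P, and 4 of them, Pygl, Gys1, Gbe1 and Pgm1, stood above both thresholds used for all genes, that is, the adjusted p was 0.05 or less and the log2 fold change 0.3 or more. In 5 of the 8, those 4 and Pgm2, every S1P sample lay above every vehicle sample. Across all 13299 tested genes 12.7% passed both thresholds as higher and 10.4% as lower, and the S1P samples lay all above the vehicle samples in 23.0% and all below in 22.6%. The median log2 fold change of the 8 genes was 0.68, with a range from 0.11 to 3.28, against a median of 0.01 over all tested genes. Since this difference chose the genes, nothing further is read from these counts.

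**Figure D1:**
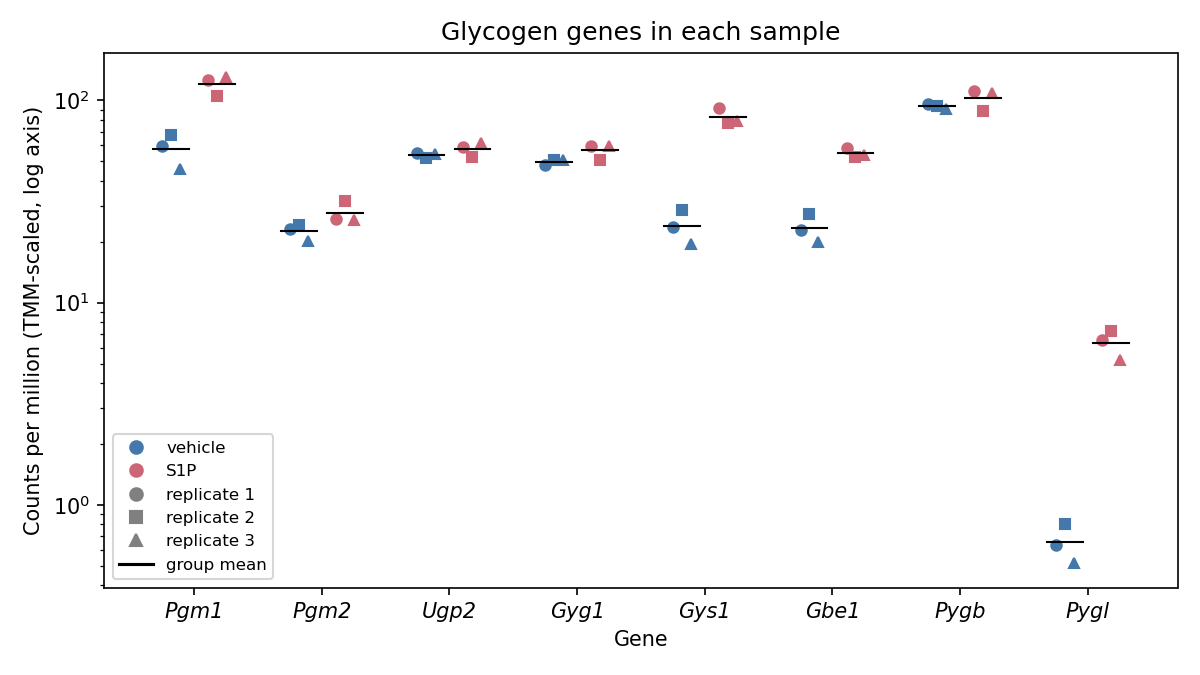
TMM-scaled CPM (log axis) of the 8 genes in each of 3 vehicle (blue) and 3 S1P (red) samples, ordered from glucose 6-phosphate to glycogen breakdown, with symbols for replicates and lines for group means. Pgm1, Gys1, Gbe1 and Pygl show separate groups with wide gaps, Pgm2 shows a narrow gap, and Ugp2, Gyg1 and Pygb overlap.

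The first steps use phosphoglucomutases. Pgm1 (ENSMUSG00000025791, chr4:99786394-99844492, plus strand, GRCm39), the main phosphoglucomutase, was measured at 59.3, 67.4 and 45.8 CPM in vehicle replicates 1 to 3 and at 126.3, 105.4 and 130.2 CPM in S1P replicates 1 to 3. The lowest S1P sample, replicate 2, was well above the highest vehicle sample. This made a log2 fold change of 1.07 ± 0.13 (standard error), or 2.10-fold. Pgm2 (ENSMUSG00000029171, chr5:64250272-64285817, plus strand), a phosphoglucomutase that also acts on ribose 1-phosphate, was at 23.2, 24.3 and 20.3 CPM in vehicle and 26.0, 31.7 and 25.6 CPM in S1P samples. Its groups did not overlap, but the gap between them was small and S1P replicate 2 was the high one. The log2 fold change of 0.29 ± 0.11 fell just short of the fold threshold, and without S1P replicate 2 it was 0.20 ± 0.09. The symbols of these mouse genes were once the other way round, with Pgm1 called Pgm2 and Pgm2 called Pgm1, and they are used here as the current annotation pairs them with the identifiers.

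Ugp2 (ENSMUSG00000001891, chr11:21270384-21321276, minus strand), which makes UDP-glucose, was at 54.8, 52.1 and 54.3 CPM in vehicle and 59.1, 52.7 and 61.4 CPM in S1P samples. S1P replicate 2 lay among the vehicle samples and the other 2 S1P samples lay above them. On the log2 scale the difference was 0.11 ± 0.08, and 0.17 ± 0.06 without S1P replicate 2. Gyg1 (ENSMUSG00000019528, chr3:20158406-20209481, minus strand), glycogenin, the protein that primes each glycogen particle, was at 48.1, 50.6 and 50.9 CPM in vehicle and 59.5, 50.8 and 59.8 CPM in S1P samples. The same S1P sample again sat at the vehicle level. For Gyg1 the log2 fold change was 0.19 ± 0.08, and 0.26 ± 0.07 without that sample.

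Gys1 (ENSMUSG00000003865, chr7:45084175-45106058, plus strand), the glycogen synthase of muscle and most other tissues outside the liver, was at 23.7, 28.7 and 19.5 CPM in vehicle and at 91.7, 77.0 and 78.9 CPM in S1P samples. The 3 S1P samples were close to each other and far above the vehicle samples. Mean levels were 24.0 ± 4.60 and 82.5 ± 8.02 CPM (SD, n = 3), a log2 fold change of 1.79 ± 0.12 or 3.46-fold. Gbe1 (ENSMUSG00000022707, chr16:70110715-70366609, plus strand), the branching enzyme, was at 22.9, 27.5 and 19.9 CPM in vehicle and at 58.2, 52.5 and 53.6 CPM in S1P samples. As with Gys1, vehicle replicate 2 was the highest and vehicle replicate 3 the lowest of the vehicle samples. The log2 fold change of Gbe1 was 1.23 ± 0.11, or 2.34-fold. Thus the genes for lengthening and for branching the chain were both higher in every S1P sample, while the groups overlapped in the gene for priming it.

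The phosphorylases cut glucose units from the chain ends. Pygb (ENSMUSG00000033059, chr2:150628628-150673685, plus strand), the brain-type phosphorylase, was at 96.3, 94.2 and 90.3 CPM in vehicle and 111.5, 88.9 and 108.5 CPM in S1P samples. S1P replicate 2 was the lowest of all 6 samples, and the log2 fold change was 0.14 ± 0.09 with it and 0.24 ± 0.06 without it. Pygl (ENSMUSG00000021069, chr12:70237585-70278262, minus strand), the liver-type phosphorylase, had only 11, 11 and 8 raw counts in vehicle replicates 1 to 3 and 116, 83 and 66 in S1P replicates 1 to 3. In CPM these were 0.634, 0.807 and 0.514 against 6.53, 7.28 and 5.18, with every S1P sample far above the vehicle samples. The log2 fold change of 3.28 ± 0.25, or 9.68-fold, was the largest of the 8 and also had the largest standard error. Pygl passed the filter on low counts only through the S1P samples. Pygl is abundant in neutrophils as well as in liver, and the summed level of 9 neutrophil markers was 0.147 to 0.450 CPM in vehicle and 0.614 to 1.18 CPM in S1P samples. Of these markers S100a8, S100a9, Elane and Retnlg were at 0 counts in all 6 libraries. Mpo had 0, 0 and 1 counts in vehicle and 5, 2 and 5 in S1P samples, and Cxcr2 had 3, 0 and 5 against 8, 5 and 9, so that for both every S1P sample was at or above the vehicle samples in raw counts. Ly6g, Camp and Ltf had at most 1 count in every library, with no such difference. The part of neutrophils in the level of Pygl was not tested.

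Short stretches of the promoters are given for the 4 members that stood above both thresholds and for Ppp1r3b, described below as the tested gene whose pattern was nearest to that of Pygl. They were read from GRCm39 just before the start of the main annotated transcript of each gene, 5′ to 3′ on the strand of the gene. Capitals mark ACGTG or GCGTG on either strand, letters found at the core of many hypoxia response elements. ACGTG is also part of the E-box CACGTG, where it reads on both strands.
Pygl (chr12:70274502-70274614, minus strand): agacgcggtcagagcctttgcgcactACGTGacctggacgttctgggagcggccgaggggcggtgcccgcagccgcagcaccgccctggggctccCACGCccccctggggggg
Gys1 (chr7:45083990-45084014, plus strand): gtagcaaccaCACGTcctccacgat
Gbe1 (chr16:70110585-70110714, plus strand): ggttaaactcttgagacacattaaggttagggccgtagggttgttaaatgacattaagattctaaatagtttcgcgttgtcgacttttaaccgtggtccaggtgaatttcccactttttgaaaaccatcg
Pgm1, first match (chr4:99786430-99786454, plus strand): tggaatgtatACGTGacactctagt
Pgm1, second match (chr4:99786457-99786481, plus strand): aatcacagtaACGTGctgaactctt
Ppp1r3b (chr8:35842744-35842873, plus strand): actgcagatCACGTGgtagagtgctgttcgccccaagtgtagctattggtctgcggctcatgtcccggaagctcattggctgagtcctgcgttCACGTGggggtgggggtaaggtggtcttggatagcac

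In the 300 bases before the start, Pygl held a match at 87 and another at 18 bases before it, Pgm1 at 171 and 144 bases, and Gys1 at 246 bases. The Gys1 match lay inside exons of Ruvbl2 on the other strand, and the Pgm1 matches inside an exon of Itgb3bp on the other strand and of longer Pgm1 transcripts. Gbe1 held none. Ppp1r3b held 2 copies of CACGTG, at 121 and 37 bases. The letters were as common in the members with little difference between the groups: 3 of Pygl, Gys1, Gbe1 and Pgm1 held at least 1 match, and so did 4 of Pygb, Ugp2, Pgm2 and Gyg1. Among 13259 promoters of tested genes 54.9% held either motif, 23.7% held ACGTG, 42.6% held GCGTG and 8.2% held CACGTG. A match describes the letters only and says nothing of binding.

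Levels can be set against each other only after division by transcript length, and are given here as CPM per kilobase (kb) of the main annotated transcript. In vehicle samples Gyg1 (24.5 ± 0.77, SD, n = 3), Pgm1 (24.2 ± 4.61) and Pygb (23.8 ± 0.78) had the highest levels, and their order is not resolved, since the samples of neighbouring genes overlapped. Ugp2 followed at 14.2 ± 0.38, then Pgm2 at 9.46 ± 0.88, Gbe1 at 7.54 ± 1.23 and Gys1 at 6.45 ± 1.24, and last Pygl at 0.227 ± 0.051. Pgm2 overlapped Gbe1 and Gbe1 overlapped Gys1. In S1P samples Pgm1 led alone at 50.8 ± 5.61. Gyg1 (27.9 ± 2.52), Pygb (26.2 ± 3.13) and Gys1 (22.2 ± 2.16) came next, with overlap between neighbours, followed without overlap by Gbe1 (17.6 ± 0.97), Ugp2 (15.3 ± 1.20), Pgm2 (11.6 ± 1.43) and Pygl (2.21 ± 0.37). Gys1 thus stood below Ugp2, Pgm2 and Gbe1 in vehicle and above all of these in S1P samples, while Pygl was last in both. With the summed length of all annotated exons instead, Gys1 stood above Pgm2 in vehicle and below Ugp2 in S1P samples.

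Within the pathway the balance between paralogues and between steps differed between the groups, as follows from the same values. Pygl made up 0.863%, 1.11% and 0.742% of the summed level per kb of the phosphorylases Pygl, Pygb and Pygm in vehicle and 7.15%, 9.87% and 5.91% in S1P samples. Most phosphorylase transcripts were therefore Pygb in both groups, and their sum was 25.0 ± 0.79 CPM per kb in vehicle and 29.4 ± 3.22 in S1P samples (SD, n = 3). Pgm1 made up 72.0%, 73.6% and 69.5% of the sum of Pgm1 and Pgm2 in vehicle and 83.0%, 77.0% and 83.7% in S1P samples.

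Glycogen synthase was also set against its neighbours in the pathway. The ratio of Gys1 to Gyg1, synthase to primer, was 0.270, 0.310 and 0.210 in vehicle and 0.844, 0.830 and 0.722 in S1P samples. The ratio of Gys1 to the summed phosphorylases was 0.249, 0.304 and 0.217 against 0.777, 0.806 and 0.695. In both ratios the S1P samples lay together above the vehicle samples and below 1. The ratio of Gys1 to Gbe1, synthase to branching enzyme, was 0.852 ± 0.029 in vehicle and 1.26 ± 0.052 in S1P samples (SD, n = 3), so it lay below 1 in each vehicle sample and above 1 in each S1P sample. These are ratios of transcript levels and no glycogen or enzyme activity was measured in these data.

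**Figure D2:**
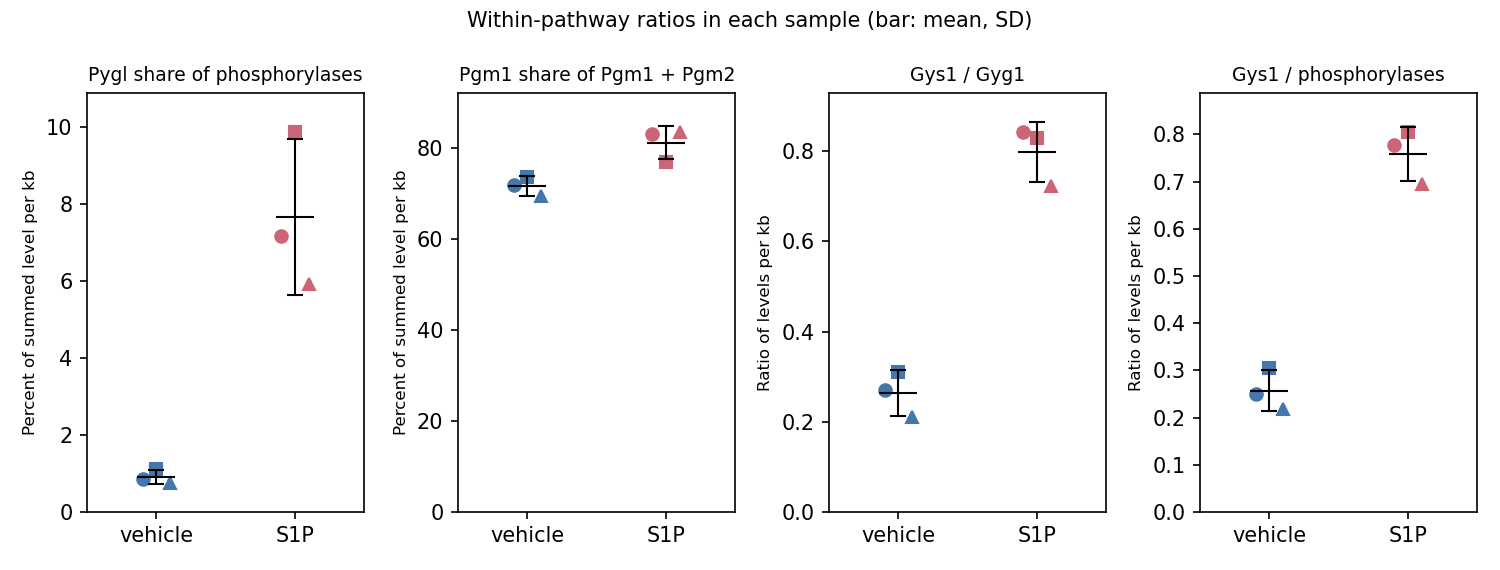
Shares (percent) and ratios of levels per kb in each of 3 vehicle (blue) and 3 S1P (red) samples, with circle, square and triangle for replicates 1, 2 and 3, and bars for mean and SD. In all 4 panels the groups are separate, with the narrowest gap in the Pgm1 share, where S1P replicate 2 is at 77.0%.

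The profiles over the 6 samples fell into those of Pygl, Gys1, Gbe1 and Pgm1, with wide gaps between the groups, and those of Pygb, Ugp2 and Gyg1, which were nearly flat. As a measure of likeness, log2 CPM was centred on each gene's mean, and the Euclidean distance between genes was taken over the 6 samples, so that a small distance means a like pattern of like size. Pygb, Ugp2 and Gyg1 lay within 0.147 to 0.157 of each other. Gbe1 and Pgm1 lay 0.293 apart, and Gys1 and Gbe1 0.698 apart. In vehicle, replicate 2 was the highest and replicate 3 the lowest for Pygl, Gys1, Gbe1, Pgm1 and Pgm2. The summed level of 15 known hypoxia targets outside sugar metabolism had the same order in these samples, with 1090.4 CPM in vehicle replicate 2 and 769 CPM in vehicle replicate 3. This order was not particular to them. Several other summed lists had it, among them the glycolysis enzymes (13315 CPM in vehicle replicate 2 and 10819 CPM in vehicle replicate 3), while others did not. The part of the hypoxia targets in the spread was not tested.

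**Figure D3:**
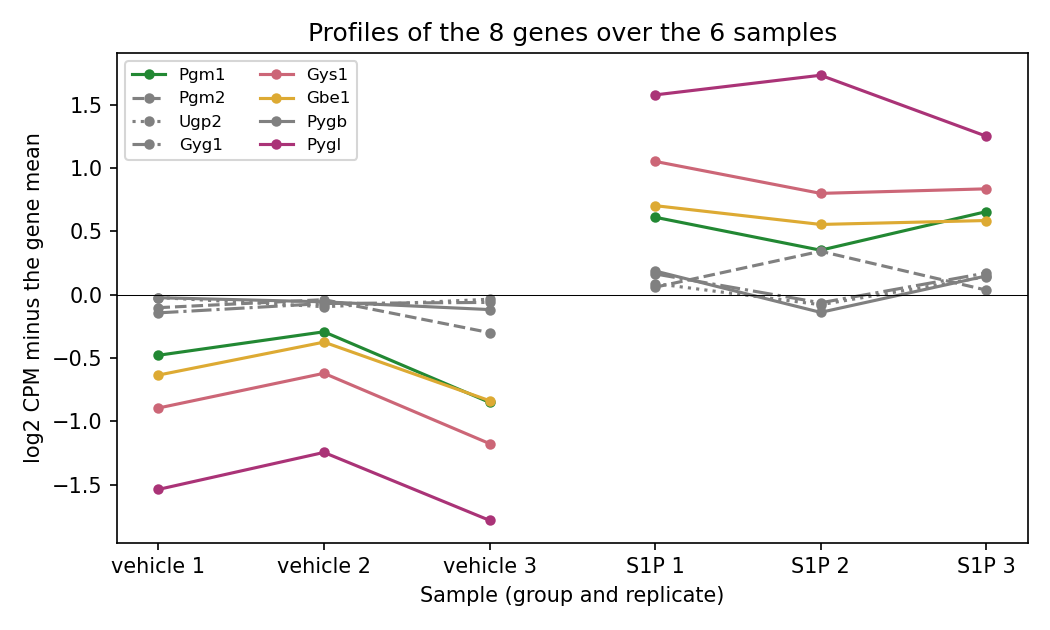
log2 CPM of each of the 8 genes minus its mean over the 6 samples, with samples on the horizontal axis and 1 line per gene within each group (lines only join points of the same gene). Pygl, Gys1, Gbe1 and Pgm1 are coloured and the other genes are grey; S1P replicate 2 is the lowest S1P sample for Pygb, Ugp2, Gyg1, Gys1, Gbe1 and Pgm1 and the highest for Pgm2 and Pygl.

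The 5 tested genes nearest to Pygl, which had the largest log2 fold change, were Ppp1r3b (distance 0.724), Aldoc (0.730), Slc35d3 (0.767), Itga7 (0.790) and Mboat2 (0.900). Ppp1r3b brings protein phosphatase 1 to glycogen, and Aldoc is a fructose-bisphosphate aldolase. The 5 nearest to Pgm1, which had the highest level per kb over all samples, were Nfil3 (0.106), Bhlhe40 (0.165), Fam117b (0.193), Gls2 (0.213) and Ak4 (0.221). Nfil3 and Bhlhe40 are transcription factors of lymphocytes, Gls2 is a glutaminase and Ak4 is a mitochondrial adenylate kinase. These distances describe likeness over 6 samples in 2 groups.

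The rest of the pathway was covered by 47 further genes, of which 33 were tested. This list too was chosen with earlier results of these data known, so its counts beside the share of all genes are a description. The edgeR quasi-likelihood test found 9 higher and 1 lower at both thresholds, beside 12.7% higher and 10.4% lower over all tested genes, and the other 23 did not pass. The median log2 fold change of the 33 was 0.12, against 0.01 over all tested genes. One gene, Epm2a, passed the filter on low counts only through the S1P samples, and among the other 32, a restriction chosen after seeing the data, the test found 8 higher and 1 lower, with a median of 0.11. The remaining 14 had too few counts to test, and 7 of these had at most 3 counts in every sample, among them Gys2, the liver glycogen synthase.

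Further breakdown enzymes were tested too. Pygm, the muscle phosphorylase, was low in both groups with 18 to 59 raw counts, and its log2 fold change was -0.05 ± 0.27 (edgeR adjusted p = 0.908). For Gaa, which breaks down glycogen in lysosomes, the difference was -0.21 ± 0.10 on the same scale, and the edgeR adjusted p was 0.129.

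Regulators of the enzymes are given group by group, and no test compared these groups with each other. Of the phosphorylase kinase subunits, which switch phosphorylase on, 4 were tested and 0 passed both thresholds, with log2 fold changes from -0.29 to 0.18. Over all tested genes 12.7% passed as higher and 10.4% as lower, so 0 of 4 is too few to set these subunits apart. At an unadjusted p under 0.05 the edgeR count was also 0 of 4, and DESeq2 and limma-voom called 0 at both thresholds. Ppp1r3b, one of the subunits that guide protein phosphatase 1 to glycogen, was at 5.53, 6.31 and 2.64 CPM in vehicle and 33.6, 32.8 and 30.5 CPM in S1P samples. It rose in every S1P sample, by 2.75 ± 0.20 on the log2 scale or 6.73-fold (edgeR adjusted p = 1.28e-05). Ppp1r3e was the only other of the 7 targeting subunits with enough counts, at 0.23 ± 0.30 (edgeR adjusted p = 0.61). Ppp1r3c had 1, 1 and 0 counts in vehicle and 5, 7 and 4 in S1P samples, and Ppp1r3g had 1, 1 and 0 against 18, 1 and 7, and neither was tested.

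Ppp1ca, a catalytic subunit of that phosphatase with many roles beyond glycogen, was the gene that fell. It was at 297.8, 293.2 and 300.1 CPM in vehicle and 243.8, 204.4 and 257.0 CPM in S1P samples, and S1P replicate 2 was again the farthest from the vehicle samples. The log2 fold change was -0.34 ± 0.08 (edgeR adjusted p = 0.0117). Without S1P replicate 2 it was -0.25, which is smaller than the fold threshold, and without vehicle replicate 3 it was -0.33 with an edgeR adjusted p of 0.0505. The other catalytic subunits, Ppp1cb and Ppp1cc, were at 0.00 and -0.10 and did not pass.

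The kinases that phosphorylate glycogen synthase showed small differences. Gsk3a (log2 fold change -0.25 ± 0.09) and Gsk3b (0.19 ± 0.07) had edgeR adjusted p values of 0.0499 and 0.0486, with changes smaller than the fold threshold, and Pask did not pass. Among subunits of AMPK, a kinase whose beta subunits can bind glycogen, Prkab2 rose from 12.9 ± 1.45 to 19.1 ± 0.705 CPM (SD, n = 3; log2 fold change 0.57 ± 0.11, edgeR adjusted p = 0.00302). Prkaa1 and Prkab1 were at -0.10 and -0.08. Epm2a, the glycogen phosphatase laforin, had 9, 5 and 1 raw counts in vehicle and 35, 21 and 23 in S1P samples. It passed the filter on low counts only through the S1P samples, so its log2 fold change of 2.52 ± 0.43 is given as a description. Nhlrc1, malin, the ubiquitin ligase that acts with laforin, was at -0.24 ± 0.28 (edgeR adjusted p = 0.56).

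On the side of glucose 6-phosphate and nucleotide sugars, 5 genes rose. Hk1 and Hk2, the hexokinases that make glucose 6-phosphate, had log2 fold changes of 0.92 ± 0.09 and 0.63 ± 0.09, with edgeR adjusted p values of 4.6e-05 and 0.000663. Gpi1, which interconverts it with fructose 6-phosphate, rose by 0.53 ± 0.09 (edgeR adjusted p = 0.00102). Slc37a4, the carrier of glucose 6-phosphate into the endoplasmic reticulum, was at 15.1, 17.1 and 12.2 CPM in vehicle and 30.1, 18.3 and 28.4 CPM in S1P samples, with S1P replicate 2 only just above the vehicle samples. Its log2 fold change was 0.81 ± 0.18 (edgeR adjusted p = 0.00584), and 89.9% of its exon bases lie under Trappc4 on the opposite strand. Ugdh, which turns UDP-glucose into UDP-glucuronate and so away from glycogen, rose by 0.43 ± 0.08 (edgeR adjusted p = 0.00157). The galactose enzymes Galk1 and Galt did not pass (0.11 and -0.05), and Pgm2l1, a relative of the phosphoglucomutases that makes glucose 1,6-bisphosphate, was at 0.29 ± 0.07, just under the fold threshold (edgeR adjusted p = 0.0126).

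**Figure D4:**
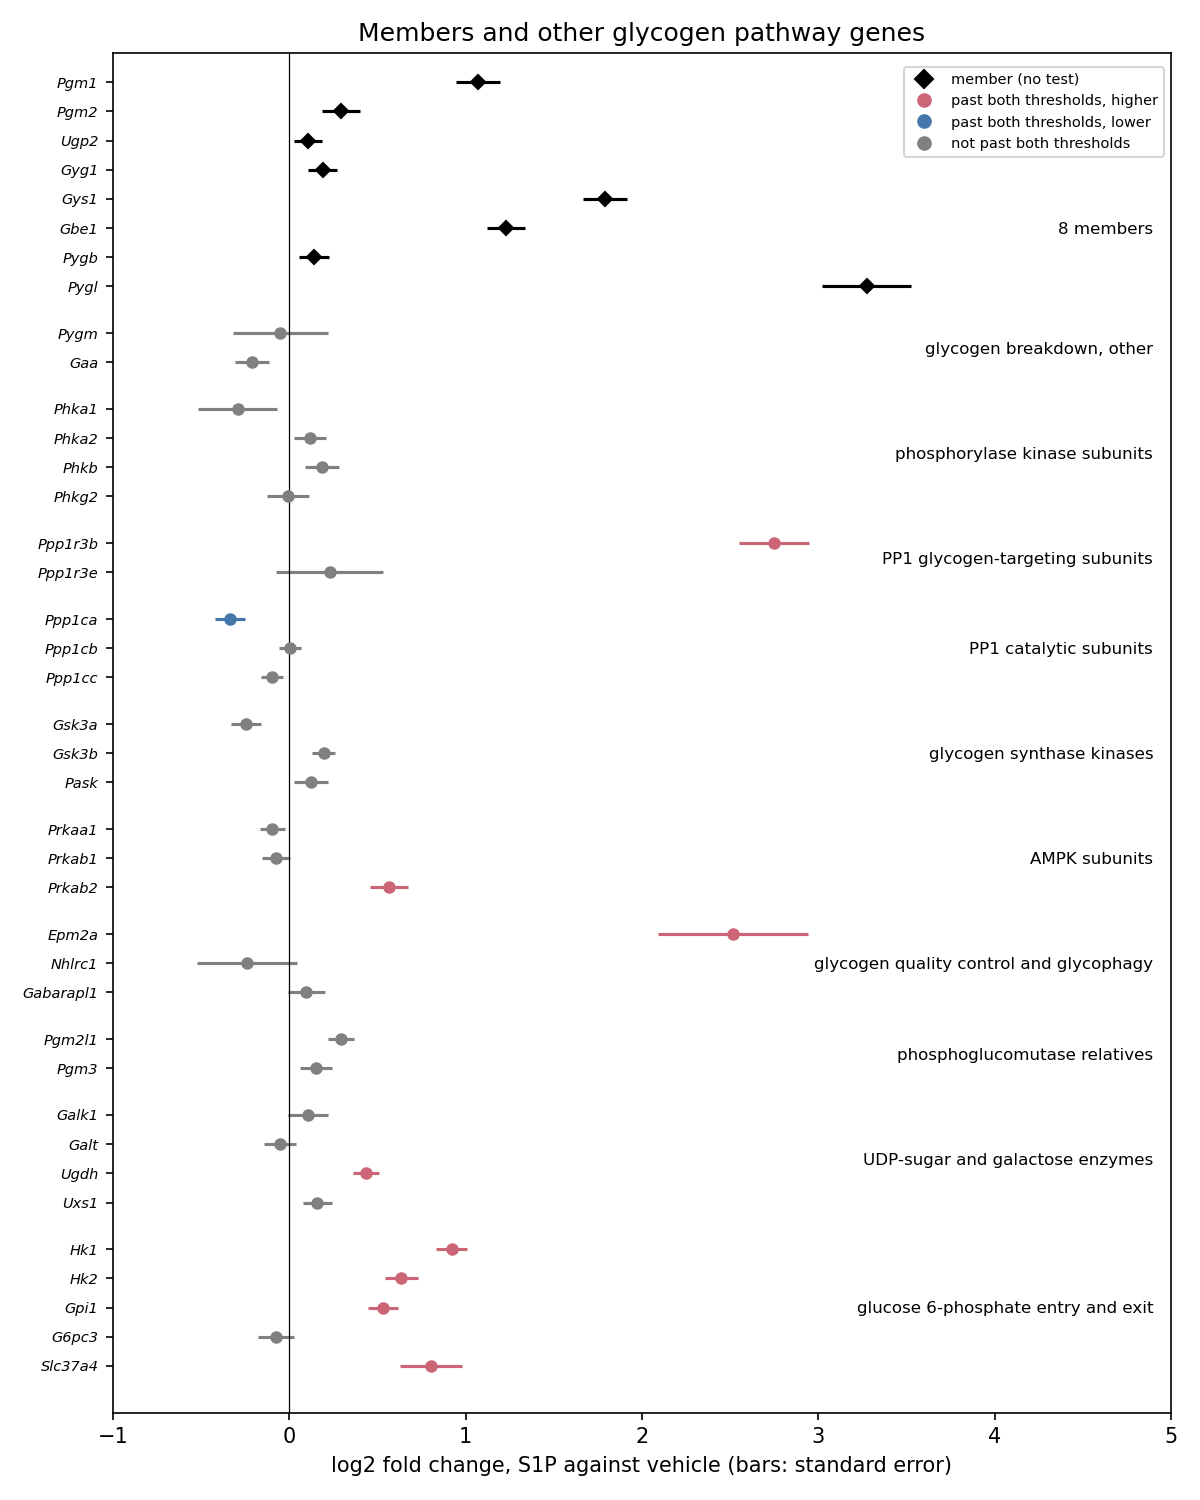
log2 fold change of S1P against vehicle for the 8 members (black diamonds, no test) and 31 of the 33 tested genes of the rest of the pathway by group, with bars for the standard error. Red marks 8 genes past both thresholds as higher, of which Epm2a passed the filter on low counts only through the S1P samples. Blue marks Ppp1ca, the 1 gene past both as lower. Grey genes did not pass both, and of the 2 genes not drawn 1 passed both as higher.

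For scale, the glycolysis enzymes below glucose 6-phosphate and the hypoxia targets were set beside the glycogen genes. Both lists were chosen with earlier results of these data known, so their counts beside the share of all genes are a description. Of 13 glycolysis enzymes 11 passed both thresholds as higher, against 12.7% of all tested genes, with a median log2 fold change of 0.53. Of 15 hypoxia targets 14 were tested and all 14 passed as higher, with a median of 1.39 and a range from 0.52 to 2.55. Among them Adm had 15, 9 and 9 raw counts in vehicle and 55, 27 and 34 in S1P samples. It passed the filter on low counts only through the S1P samples. Its place among the 14 and its log2 fold change of 1.94 ± 0.28 are therefore given as a description. The log2 fold changes of Pgm1, Gbe1 and Gys1 lay inside that range and that of Pygl above it, while those of Pgm2, Gyg1, Pygb and Ugp2 lay below it. The summed level of the hypoxia targets was 769 to 1090.4 CPM in vehicle and 1937.6 to 2115 CPM in S1P samples, and its part in the values of the glycogen genes was not tested.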

How the data were processed

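RNA-seq libraries of 3 S1P-treated and 3 vehicle-treated samples were used. The authors deposited whole-number counts of reads per gene, without normalization. According to the labels and the submitters' processing notes, stranded paired-end reads of polyadenylated RNA were trimmed with Trim Galore, aligned with STAR to GRCm39 and counted with featureCounts. Versions, annotation release, strand setting and the handling of multiply mapped reads are not given in the sources used here, so genes with paralogues or with overlapping exons on the other strand (25.0% of the exon bases of Ugp2, 16.7% of Pgm1, 13.0% of Gys1) are less certain.

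Symbols, positions and transcript starts came from GENCODE M39 (GRCm39), which held 56323 of the 56941 identifiers, and promoter sequence from the GRCm39 genome. Lengths are those of the Ensembl canonical transcript. Counts were filtered with filterByExpr, scaled with TMM factors and tested with the quasi-likelihood test of edgeR 4.0.16 (R 4.3.3), treatment being the only term, with Benjamini-Hochberg adjustment over 13299 genes. A gene passed at an adjusted p up to 0.05 together with a log2 fold change from 0.3 upward in either direction. CPM are TMM-scaled, and log2 CPM for distances had a prior count of 2. A floor of 3 counts was used, which covers counting error only. Standard errors are the size of the log2 fold change divided by the square root of the quasi-likelihood F statistic. They therefore include the spread between samples. Total counts per library were 17089831, 13636095 and 15410486 for vehicle and 17384084, 12048880 and 12784236 for S1P replicates 1 to 3.

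Named were the 8 genes, each other pathway gene that passed, and the 5 genes nearest to the member with the largest fold change and to the member with the highest level per length (mean log2 CPM of at least 1), with further pathway genes by group. Of the tested pathway genes, 2 are counted but not reported here by name. The 8 genes and all lists were chosen with earlier results of these data known. Alternatives were DESeq2 1.42.0, limma-voom (limma 3.58.1), other scaling factors, filters and thresholds, the replicate number as a block and the fit without each library. The models were tested on simulated data first. Replicates were compared by chi-square per gene, and none were duplicates. Figures were drawn with matplotlib 3.10.9.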

Additional observations from a re-analysis of the deposited data

How the results depend on the processing

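The log2 fold changes of the 8 members kept their sign under every alternative fit that gave them a value. Their ranges were 3.13 to 3.43 for Pygl, 1.66 to 1.93 for Gys1, 1.12 to 1.35 for Gbe1, 0.93 to 1.20 for Pgm1, 0.20 to 0.34 for Pgm2, 0.14 to 0.26 for Gyg1, 0.08 to 0.24 for Pygb and 0.05 to 0.17 for Ugp2, and both ends came from leaving out a library. Pygl and Epm2a gave no value with at least 10 counts required in every sample. At a log2 fold change of at least 1, 383 genes were higher and 82 lower, with 2 other pathway genes higher and 0 lower. By adjusted p alone 2 other pathway genes were lower. Leaving out a library in turn gave 0 to 1 other pathway genes lower, 9 to 10 higher, and 1158 to 1736 genes higher and 961 to 1492 lower in all. Ppp1ca lost its call without vehicle replicate 3 (-0.33, edgeR adjusted p = 0.0505) and without S1P replicate 2 (-0.25, edgeR adjusted p = 0.00422), and its adjusted p reached at most 0.0505 over all alternatives. The other 9 called pathway genes passed in every fit that gave them a value. Epm2a is among these 9, and it passed the filter on low counts only through the S1P samples, so its calls are a description. Replicate numbers were not treated as pairs. The deviations of same-numbered samples correlated at 0.12, -0.01 and 0.05, but so few samples per group cannot show whether they share an animal or a batch. With the replicate block 1697 genes were higher and 1423 lower, and the same number of other pathway genes, 9 and 1, passed. With the summed length of all annotated exons in place of the canonical transcript, chosen after seeing the data, Ugp2 took place 3 in both groups, Pygb place 4 in vehicle and 5 in S1P, Gbe1 place 5 in vehicle and 6 in S1P, Gys1 place 6 and Pgm2 place 7 in vehicle. The median log2 fold change of all genes lay between -0.01 and 0.04 under the 4 scalings.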
